A study of Schizosaccharomyces pombe with 8 samples.

Results

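The genes described here are the protein-coding genes in the outer 100 kb of each arm of chromosome II of the fission yeast Schizosaccharomyces pombe. They were taken by position alone, as the coding features that begin within 100 kb of the left end or finish within 100 kb of the right end. This gave 58 genes of 5137 coding features, 32 at the left end and 26 at the right end. RNA was sequenced from 8 libraries in 4 groups of 2, all grown in the rich medium YEA to mid-log phase. The groups were nht1 (strain CS2354, nht1-delta), iec1 (strain CS2379, iec1-delta), iec5 (strain CS2370, iec5-delta) and wt (strain SPJ1577, the wild type). Each deletion is labelled as a loss of a subunit of INO80, a complex that slides nucleosomes along DNA. Nothing in the labels says that the libraries of a group came from separate cultures, so p-values measure the spread between these libraries, which may be technical.

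Subtelomeres are the stretches of chromosome next to the telomere repeats. In fission yeast their outer part is packed into heterochromatin, in which nucleosomes carry methylation at lysine 9 of histone H3 and transcription is low. These stretches hold duplicated gene families that recur at several chromosome ends, telomere-linked RecQ-type helicase genes, and many genes for nutrient uptake and use that are kept low in rich medium.

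Coding totals ran from 2208165 to 3426063 counts a library, and 3 counts equalled 0.875 to 1.38 CPM (counts scaled to the library's total). The replicates of a group differed by more than counting error, with a chi-square of 7.07 to 9.56 per degree of freedom over genes. The targeted genes checked the labels. The nht1 gene stood at 24.8 and 34.9 CPM in nht1 libraries, against 48.6 and 41.6 CPM in wt libraries, which did not pass the test (edgeR adjusted p = 0.212). The iec5 gene stood at 3.29 and 1.46 CPM in iec5 libraries, against 12.4 and 12.8 CPM in wt libraries, and fell (log2 fold change -2.41, edgeR adjusted p = 0.0278). The iec1 gene went against its label, at 95.4 and 88.4 CPM in the libraries labelled iec1 and 40.5 and 36.4 CPM in wt libraries (log2 fold change 1.25, edgeR adjusted p = 0.000741). Every direction given below for iec1 or nht1 therefore belongs to the libraries labelled iec1 or labelled nht1.

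Most genes of the chromosome II ends were low in every strain. Per kilobase of gene, the median level was 1.02 CPM per kb in nht1, 1.24 in iec1, 0.808 in iec5 and 1.06 in wt libraries, against a median over all coding genes of 33.7 in nht1, 34.9 in iec1, 33.0 in iec5 and 32.4 CPM per kb in wt libraries. The ends of chromosome I were low too. Their medians were 1.33 CPM per kb in nht1, 1.80 in iec1, 0.860 in iec5 and 0.927 in wt libraries. In bulk RNA, transcription in fewer cells and less RNA per cell cannot be told apart. Of the 58 genes, 27 passed the low-count filter and were tested, 14 at the left end and 13 at the right end. The other 31 had at most 59 counts over the 8 libraries, and 8 of them had 0, which allows a level of up to 0.875 to 1.38 CPM depending on the library (counting error only).

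The level differed along each arm. At the left end, 0 of the 10 genes in the outermost 25 kb were tested and 5 of them had 0 counts. That stretch begins with SPBC1348.15, an uncharacterized gene 0.3 kb from the end, with 0 counts in all 8 libraries. From 25 to 50 kb 3 of 6 genes were tested, from 50 to 75 kb 5 of 9, and from 75 to 100 kb 6 of 7. The median level over the genes of that innermost step was 23.7 CPM per kb in nht1, 23.6 in iec1, 21.0 in iec5 and 35.1 in wt libraries. At the right end the outermost 25 kb held 2 genes, of which tlh2 was tested and the uncharacterized SPBCPT2R1.04c, with 44 counts over the 8 libraries, was not. From 25 to 50 kb 1 of 10 genes was tested (gal1, at 49.5 kb), from 50 to 75 kb 5 of 8, and from 75 to 100 kb 6 of 6.

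**Figure D1:**
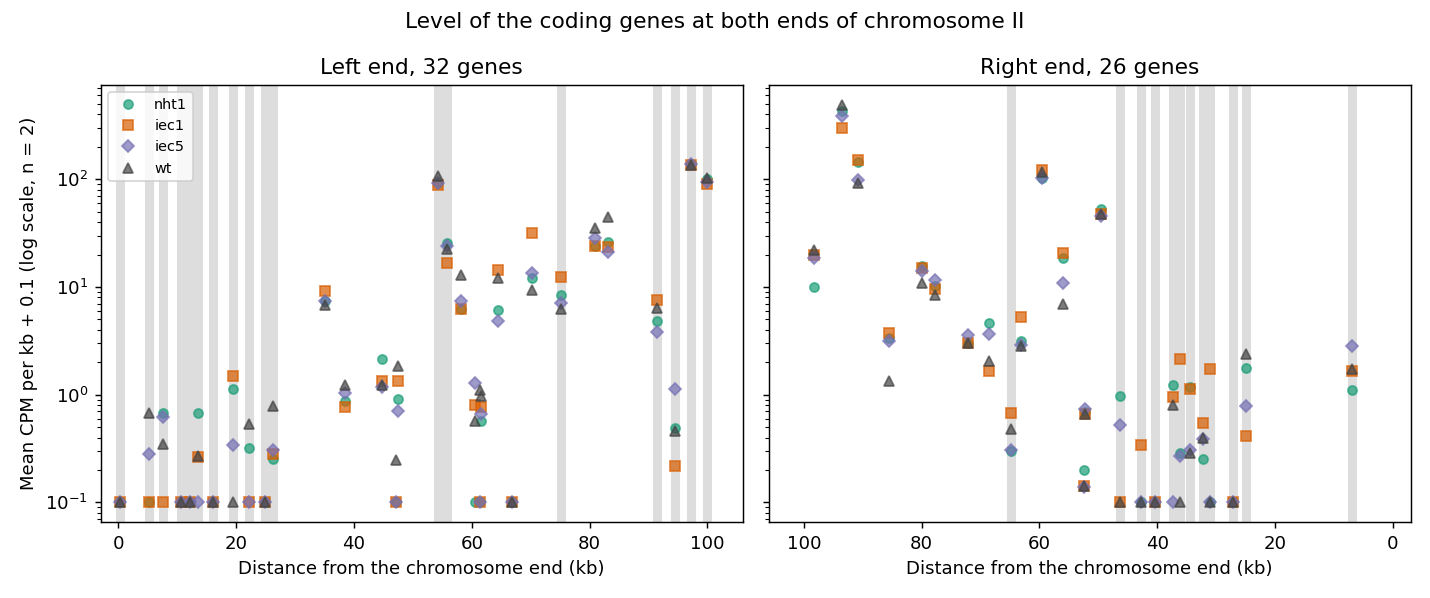
Level of each coding gene of the chromosome II ends by its distance from the chromosome end in kb, with the 32 left-end genes and the 26 right-end genes in separate panels. Points are the mean CPM per kb of the 2 libraries of each strain plus 0.1 on a log axis, so that 0 lies at 0.1, and grey bands mark genes of which under 50% of the 75-base words occur once in the genome. In the outermost left 25 kb 5 of 10 genes are at 0 in every strain, and pho84 is the highest point at the right end.

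Over the 58 genes low counts and sequence copies went together, but not in every stretch. In 30 of the 58 genes fewer than 50% of the 75-base words occur once in the genome (18 left, 12 right). The same held for 26 of 66 genes at the ends of chromosome I. It held for 42 of the 4991 coding genes away from the ends of chromosomes I and II. Of the 28 genes that are at least 50% unique, 20 were tested, and of the 30 below that mark, 7 were. In the left step from 75 to 100 kb the median gene was 18.5% unique, yet its wt median was 35.1 CPM per kb and 6 of 7 genes were tested. In the left steps from 25 to 50 and 50 to 75 kb the median gene was 100% unique. Their wt medians were 1.13 and 9.21 CPM per kb. How the authors' counting treated reads that match several places is not stated in the labels or processing notes, so the share of the low counts that belongs to copies was not tested. The outer left genes recur elsewhere: SPBC1348.06c, a Vel1p domain gene, shares all its 75-base words with SPBPB2B2.15 at the right end of the same chromosome. SPBC1348.10c, a phospholipase gene, and SPBC1348.09, a dehydrogenase gene, share all of theirs with plb4 and ayr2 on chromosome I. Counts of such genes are uncertain as to their copy.

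SPBPB10D8.01 and SPBPB10D8.02c lie tail to tail and were both called against wt. At the right end gal7 was called and gal1 was not, with gal10 and tgd1 annotated between them. The stretches before 5 genes are shown: SPBPB10D8.01, SPBPB10D8.02c, aes1, gal7 and gal1, of which all but gal1 were called against wt. Each is a run of 250 bases that ends before the first counted base, 5' to 3' on the gene's strand, from RefSeq build ASM294v3. The gal7 stretch lies inside the feature of tgd1 and runs into that of gal10. Capitals mark CCAAT or its reverse complement ATTGG.

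SPBPB10D8.01, chrII:80649-80898, plus strand: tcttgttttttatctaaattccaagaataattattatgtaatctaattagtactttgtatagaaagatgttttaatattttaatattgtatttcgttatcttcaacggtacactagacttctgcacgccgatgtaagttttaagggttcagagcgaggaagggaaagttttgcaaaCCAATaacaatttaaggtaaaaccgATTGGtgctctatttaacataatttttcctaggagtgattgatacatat
SPBPB10D8.02c, chrII:85632-85881, minus strand: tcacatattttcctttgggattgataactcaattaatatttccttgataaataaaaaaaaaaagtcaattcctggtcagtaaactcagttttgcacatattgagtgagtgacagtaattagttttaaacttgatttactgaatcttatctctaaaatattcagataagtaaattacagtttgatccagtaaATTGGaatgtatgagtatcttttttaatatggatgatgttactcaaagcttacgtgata
aes1, chrII:69882-70131, plus strand: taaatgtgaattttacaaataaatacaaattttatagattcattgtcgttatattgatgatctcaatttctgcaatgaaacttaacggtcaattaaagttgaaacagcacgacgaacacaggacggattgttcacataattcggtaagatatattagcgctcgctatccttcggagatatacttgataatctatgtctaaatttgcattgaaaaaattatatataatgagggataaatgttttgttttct
gal7, chrII:4483800-4484049, minus strand: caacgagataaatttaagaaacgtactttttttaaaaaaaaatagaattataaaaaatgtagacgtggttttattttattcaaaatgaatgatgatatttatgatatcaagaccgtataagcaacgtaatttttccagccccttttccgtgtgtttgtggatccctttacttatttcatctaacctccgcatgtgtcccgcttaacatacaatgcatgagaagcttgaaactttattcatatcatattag
gal1, chrII:4488048-4488297, plus strand: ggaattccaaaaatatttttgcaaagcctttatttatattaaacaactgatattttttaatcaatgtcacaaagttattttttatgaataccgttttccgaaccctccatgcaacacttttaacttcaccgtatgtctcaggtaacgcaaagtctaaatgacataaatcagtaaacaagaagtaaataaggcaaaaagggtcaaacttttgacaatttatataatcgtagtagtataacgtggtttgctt

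SPBPB10D8.01 held 2 such matches, SPBPB10D8.02c held 1, and aes1, gal7 and gal1 held 0. Over the 58 windows, 43.1% held CCAAT on either strand, against 34.9% of 5098 windows of the same length. The cyclic AMP response element core TGACGT was in 5.17% of the 58 windows and 4.61% of all windows, ACGCG in 6.90% and 8.61%, the telomere repeat unit GGTTAC in 5.17% and 5.67%, and CCCCTC in 0 of the 58 and 1.59% of all. All were searched on both strands, matches on the strands may overlap, and a window counts once. A match describes the letters and no more.

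Each deletion was then set against wild type, to ask which of these genes changed when a subunit gene was labelled as lost. The 3 comparisons use the same 2 wt libraries, so their values are given side by side and are not independent. Below, some genes and sums are said to lie above, below or overlapping wt by library. The share of all genes with such an order is not given here, so it describes the libraries and is not read as a change. In nht1 libraries 2 of the 27 tested genes were called, SPBPB10D8.02c lower and gal7 higher, where 4.13% of all 4652 tested coding genes were called (3.14% higher and 0.989% lower). In iec1 libraries 5 of 27 were called, 3 higher (aes1, SPBPB21E7.09 and gal7) and 2 lower (SPBPB10D8.01 and SPBPB10D8.02c), where 10.3% of all genes were called (8.04% higher and 2.21% lower). In iec5 libraries 1 of 27 was called, SPBPB10D8.02c lower, where 0.408% of all genes were called (0.129% lower). The median log2 fold change over the 27 genes was 0.03 in nht1, 0.00 in iec1 and 0.03 in iec5, against 0.02, 0.02 and 0.01 over all genes tested. At the ends of chromosome I, 1 of 32 tested genes was called in nht1, 10 in iec1 and 1 in iec5.

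Grouped by keywords in their annotated products, the called genes were too few to compare roles. Over all genes tested, 4.13% were called in nht1, 10.3% in iec1 and 0.408% in iec5. Of 12 transporter genes 8 were tested and 1 was called, SPBPB10D8.01 in iec1. Of 4 sugar or carbohydrate genes all were tested and gal7 was called, in nht1 and iec1. Of 13 genes for other enzymes 8 were tested, with 1 called in nht1, 2 in iec1 and 1 in iec5. Both transcription factor genes and the helicase gene tlh2 were tested and were not called against wt. Of 23 other or uncharacterized genes 3 were tested, and aes1 was called in iec1.

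**Figure D2:**
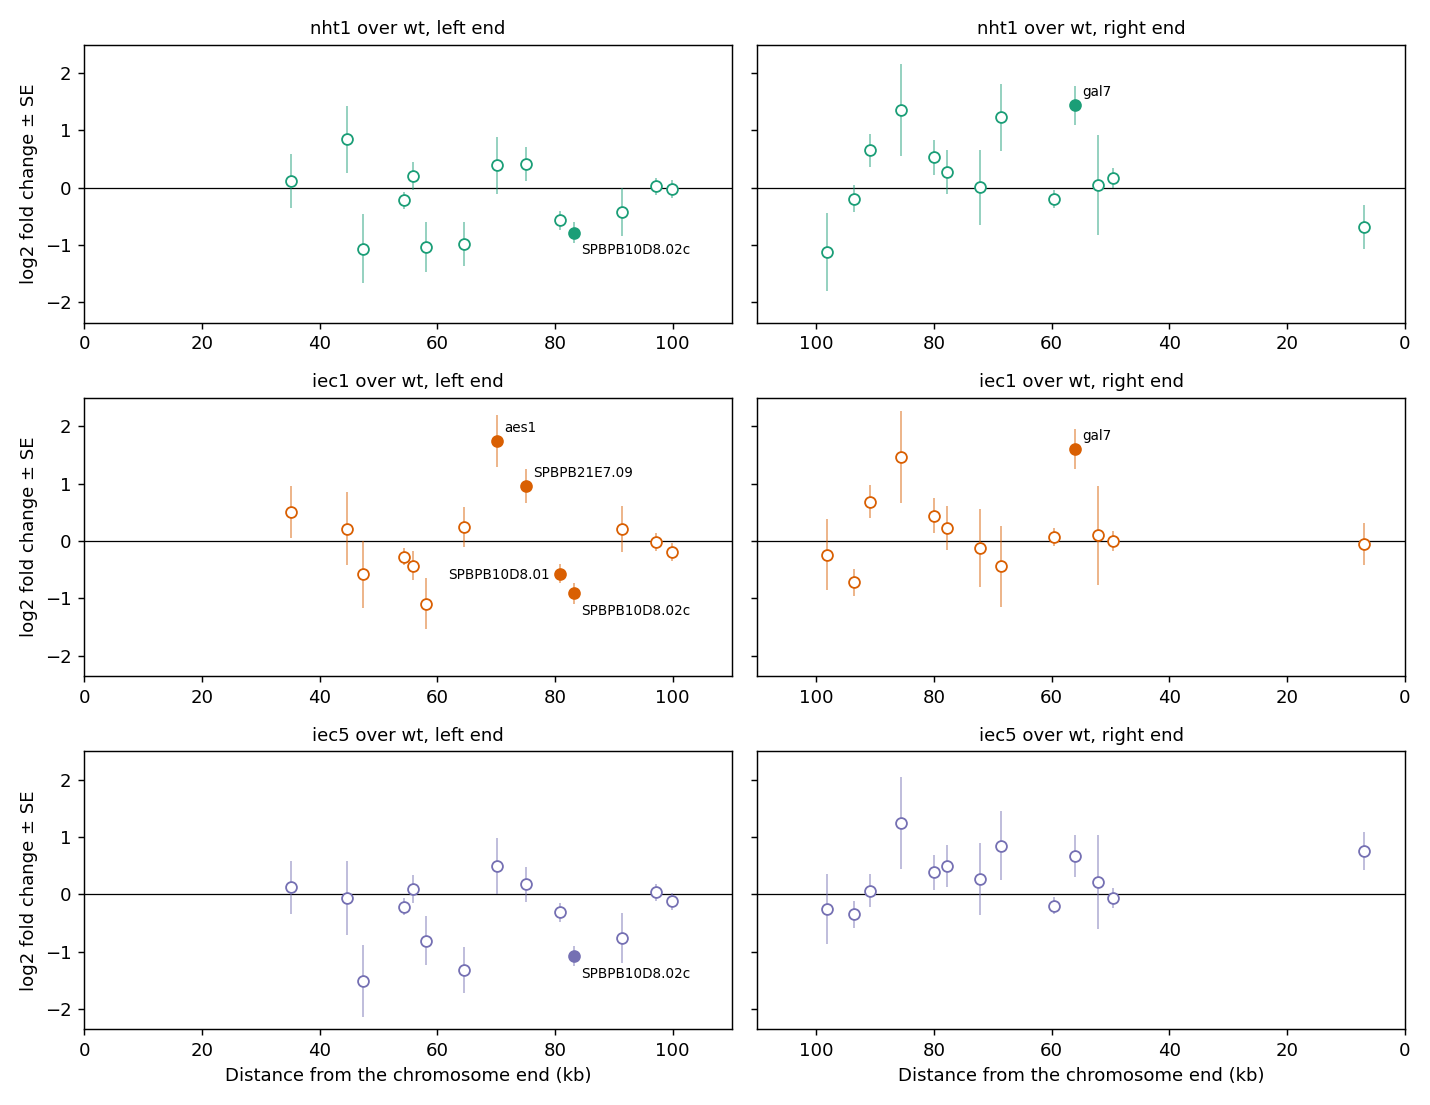
Log2 fold change against wt of each tested chromosome II end gene by its distance from the chromosome end in kb, with 1 panel for each deletion and end. Filled, named points have an edgeR adjusted p under 0.05, and bars are approximate standard errors. The named genes lie between 56.0 and 83.2 kb from an end, and 0 of the 10 genes in the outermost left 25 kb were tested.

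All 4 left-end genes called against wt lay in the inner 50 kb of that end, from aes1 at 70.2 kb to SPBPB10D8.02c at 83.2 kb. The low-count filter limited where calls could lie. From the end inward, 0 of 10, 3 of 6, 5 of 9 and 6 of 7 genes were tested in the steps of 25 kb. SPBPB10D8.02c, annotated as an arylsulfatase, an enzyme class that releases sulfate from aromatic sulfate esters, spans positions 83229 to 85631 on the minus strand (ASM294v2). It stood at 52.2 and 72.0 CPM in nht1, 56.8 and 56.4 CPM in iec1, and 50.4 and 50.7 CPM in iec5 libraries, against 101 and 112 CPM in wt libraries. All 6 deletion libraries were below both wt libraries. It fell in each comparison by edgeR with Benjamini-Hochberg adjustment: log2 fold change -0.78 (SE 0.18, adjusted p = 0.0171) in nht1, -0.91 (SE 0.18, adjusted p = 0.00262) in iec1 and -1.07 (SE 0.18, adjusted p = 0.00916) in iec5. The call in iec1 held under all 13 alternative fits. A minimum log2 fold change of 1 either way would drop the iec1 and nht1 calls and keep the iec5 call. The call in nht1 was lost without wt replicate 1 (edgeR adjusted p = 0.0640), without nht1 replicate 1 (0.206) and without wt replicate 2 (0.158), and the call in iec5 was lost without any 1 of its own or the wt libraries (0.0501 to 0.170).

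SPBPB10D8.01, annotated as a cysteine transporter, runs toward SPBPB10D8.02c on the plus strand from 80899 to 83357, and the 2 features overlap by 129 bases at their tails. It stood at 58.2 and 58.2 CPM in nht1, 61.4 and 55.2 CPM in iec1, and 64.9 and 74.1 CPM in iec5 libraries, against 89.1 and 83.5 CPM in wt libraries. Here too all 6 deletion libraries lay below both wt libraries. By edgeR it fell in iec1 (log2 fold change -0.57, SE 0.17, adjusted p = 0.0362), while nht1 gave -0.57 (adjusted p = 0.0634) and iec5 gave -0.31 (adjusted p = 0.993). The iec1 call was lost when any 1 library of iec1, nht1 or wt was left out (edgeR adjusted p 0.0519 to 0.166). In nht1 the change passed under RLE normalization (edgeR adjusted p = 0.0498).

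Among the genes that rose in libraries labelled iec1, aes1, of the phenazine biosynthesis family, lies at 70156 to 71310 on the plus strand. It stood at 15.7 and 12.0 CPM in nht1, 44.0 and 28.2 CPM in iec1 and 25.03 and 5.54 CPM in iec5 libraries, against 9.66 and 11.6 CPM in wt libraries. Both iec1 libraries were above all other libraries, and the iec5 libraries lay on both sides of wt. The edgeR log2 fold change of iec1 against wt was 1.74 (SE 0.46, adjusted p = 0.0203). The call was lost with DESeq2 (adjusted p = 0.128), and with edgeR without wt replicate 1 (0.139), without wt replicate 2 (0.108) or without iec1 replicate 1 (0.111).

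SPBPB21E7.09, annotated as an L-asparaginase, an enzyme that cleaves asparagine to aspartate and ammonia, stood at 20.1 and 22.2 CPM in nht1, 38.5 and 24.1 CPM in iec1 and 19.1 and 16.6 CPM in iec5 libraries, against 17.5 and 14.1 CPM in wt libraries. Both iec1 libraries were above all others. It rose in iec1 (edgeR log2 fold change 0.96, SE 0.29, adjusted p = 0.0434), and that call was lost in 7 of 13 alternatives, among them DESeq2 (adjusted p = 0.0603), edgeR without iec1 replicate 1 (log2 fold change 0.61, adjusted p = 0.369) and edgeR without wt replicate 2 (0.259). Leaving out wt replicate 1 (edgeR adjusted p = 0.0958), nht1 replicate 1 (0.0614) or nht1 replicate 2 (0.0614) lost it too. This gene shares 55.5% of its 75-base words with SPAC186.03 on chromosome I, which had 15 counts over the 8 libraries against 510 for SPBPB21E7.09. The words were taken over the RefSeq span, which begins 1223 bases after the start of the counted feature.

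Other left-end genes did not pass in any comparison with wild type. SPBPB8B6.05c, a second L-asparaginase, stood at 120 and 112 CPM in nht1, 103.2 and 120 CPM in iec1 and 116 and 117 CPM in iec5 libraries, against 128 and 143 CPM in wt libraries. All 6 deletion libraries were below both wt libraries, with log2 fold changes of -0.22 in nht1, -0.27 in iec1 and -0.22 in iec5 (edgeR adjusted p 0.278 to 0.993). The enolase gene eno102, of the glycolytic family that makes phosphoenolpyruvate, stood at 12.0 and 7.27 CPM in nht1, 11.5 and 7.64 CPM in iec1 and 17.8 and 5.25 CPM in iec5 libraries, against 20.8 and 19.0 CPM in wt libraries. The groups did not overlap wt there either, with log2 fold changes of -1.03, -1.09 and -0.81 (edgeR adjusted p 0.139 to 0.993). SPBPB8B6.05c shares 72.7% of its 75-base words with SPAC977.12 on chromosome I, so its counts are uncertain as to copy. The fluoride exporter gene fex2 had log2 fold changes of 0.20 in nht1, -0.43 in iec1 and 0.10 in iec5, and shares 73.7% of its 75-base words with fex1.

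Some left-end genes passed the filter at low counts. The transcription factor gene grt1 stood at 4.40 and 1.82 CPM in nht1, 6.88 and 2.64 CPM in iec1 and 2.64 and 2.04 CPM in iec5 libraries, against 9.06 and 4.28 CPM in wt libraries. Both iec5 libraries were below both wt libraries (log2 fold change -1.51, SE 0.62, edgeR adjusted p = 0.914), and the other deletions overlapped wt. It overlaps fah1, an acetamidase gene on the other strand, by 1703 bases, and fah1 had 2 counts over the 8 libraries. Whether reads in that overlap were counted for either gene is not known, so both low levels are uncertain. The urea transporter gene SPBPB8B6.02c gave log2 fold changes of 0.84 (SE 0.58) in nht1, 0.21 (SE 0.64) in iec1 and -0.07 (SE 0.64) in iec5, and the transcription factor gene SPBC1348.12 overlapped wt in every deletion.

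The left-end genes with the highest CPM, SPBPB10D8.06c and SPBPB10D8.07c, belong to 4 transporter genes in a row, SPBPB10D8.04c to SPBPB10D8.07c, just inside the 100 kb limit. SPBPB10D8.06c averaged 180 ± 27.9 CPM in nht1, 174 ± 15.3 CPM in iec1, 180 ± 0.899 CPM in iec5 and 176 ± 20.4 CPM in wt libraries (SD, n = 2 each). SPBPB10D8.07c averaged 157 ± 22.3 CPM in nht1, 140 ± 0.167 CPM in iec1, 147 ± 1.15 CPM in iec5 and 160 ± 28.9 CPM in wt libraries (SD, n = 2 each). Neither differed beyond the spread of its libraries, with log2 fold changes of -0.19 to 0.03 against wt. The 4 genes share most of their 75-base words: all those of SPBPB10D8.05c, with 15 counts over the 8 libraries, also occur in SPBPB10D8.06c, with 4362. The division of reads among these genes is therefore uncertain.

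At the right end, the 3 galactose genes of the fission yeast gal cluster gave unlike values. The galactose-1-phosphate uridylyltransferase gene gal7, at 4482234 to 4483799 on the minus strand, stood at 29.9 and 28.4 CPM in nht1, 26.6 and 38.2 CPM in iec1 and 11.9 and 22.2 CPM in iec5 libraries, against 13.9 and 7.64 CPM in wt libraries. All nht1 and iec1 libraries were above both wt libraries, and 1 iec5 library lay between the wt libraries. It rose in nht1 (edgeR log2 fold change 1.43, SE 0.35, adjusted p = 0.0249) and in iec1 (1.601, SE 0.35, adjusted p = 0.00545), and iec5 gave 0.67 (adjusted p = 0.993). The nht1 call was lost without wt replicate 2 (edgeR adjusted p = 0.282), nht1 replicate 1 (0.140) or nht1 replicate 2 (0.140), and the iec1 call without wt replicate 2 (0.103) or iec1 replicate 2 (0.0549).

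The galactokinase gene gal1, which starts the same pathway, stood at 89.6 and 117 CPM in nht1, 83.4 and 99.8 CPM in iec1 and 85.0 and 91.6 CPM in iec5 libraries, against 81.8 and 102 CPM in wt libraries. Each deletion overlapped wt, with log2 fold changes of 0.17 (SE 0.18) in nht1, 0.00 (SE 0.18) in iec1 and -0.06 (SE 0.18) in iec5. The epimerase gene gal10 stayed between 0.906 and 3.50 CPM in all 8 libraries, and its fold changes had SEs of 0.82 to 0.86. It overlaps tgd1, a nucleotide-sugar dehydratase gene on the other strand, by 3291 bases, 92.8% of gal10. Over the 8 libraries gal10 had 52 counts and tgd1 had 5. Whether reads in the overlap were counted for either gene is not known, so the low level of gal10 is uncertain.

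The phosphate genes at the inner edge of the right end dominated its RNA. The phosphate transporter gene pho84, at 4444101 to 4446200, stood at 1142 and 659 CPM in nht1, 673 and 581 CPM in iec1 and 884 and 735 CPM in iec5 libraries, against 1323 and 738 CPM in wt libraries. Both iec1 libraries were below both wt libraries, which differed more from each other than either iec1 library did from the lower wt library. The log2 fold change of iec1 against wt was -0.72 (SE 0.24) and did not pass (edgeR adjusted p = 0.0643), though it passed under 7 of the 13 alternatives, among them RLE normalization (edgeR adjusted p = 0.0451). It rested on the wt libraries: the log2 fold change was -0.24 without wt replicate 1 (edgeR adjusted p = 0.645) and -1.08 without wt replicate 2 (edgeR adjusted p = 0.0123). The secreted acid phosphatase gene pho1 stood at 225 and 225 CPM in nht1, 308 and 159 CPM in iec1 and 196 and 105 CPM in iec5 libraries, against 180 and 108 CPM in wt libraries. Its nht1 libraries were above both wt libraries (log2 fold change 0.65, edgeR adjusted p = 0.254), and iec1 gave 0.69 (edgeR adjusted p = 0.151). Without wt replicate 1 the log2 fold changes were 1.07 in nht1 and 1.10 in iec1, and without wt replicate 2 they were 0.33 and 0.36. In iec1 it was 0.15 without iec1 replicate 1 and 1.05 without iec1 replicate 2 (edgeR adjusted p = 0.833 and 0.00794).

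The telomere-linked helicase gene tlh2, 6.9 kb from the right end and the outermost tested gene, stood at 7.23 and 4.73 CPM in nht1, 10.1 and 8.81 CPM in iec1 and 15.5 and 17.5 CPM in iec5 libraries, against 9.96 and 9.48 CPM in wt libraries. Both iec5 libraries were above and both nht1 libraries below wt. The differences from wt did not pass, with log2 fold changes of -0.68 (SE 0.38) in nht1, -0.05 (SE 0.36) in iec1 and 0.76 (SE 0.33) in iec5 (edgeR adjusted p 0.385 to 0.959). Set against nht1, iec5 gave 1.45 (SE 0.36, edgeR adjusted p = 0.113). The gene shares 92.8% of its 75-base words with tlh1 on chromosome I, which had 83 counts against 259, so the value is uncertain as to copy.

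**Figure D3:**
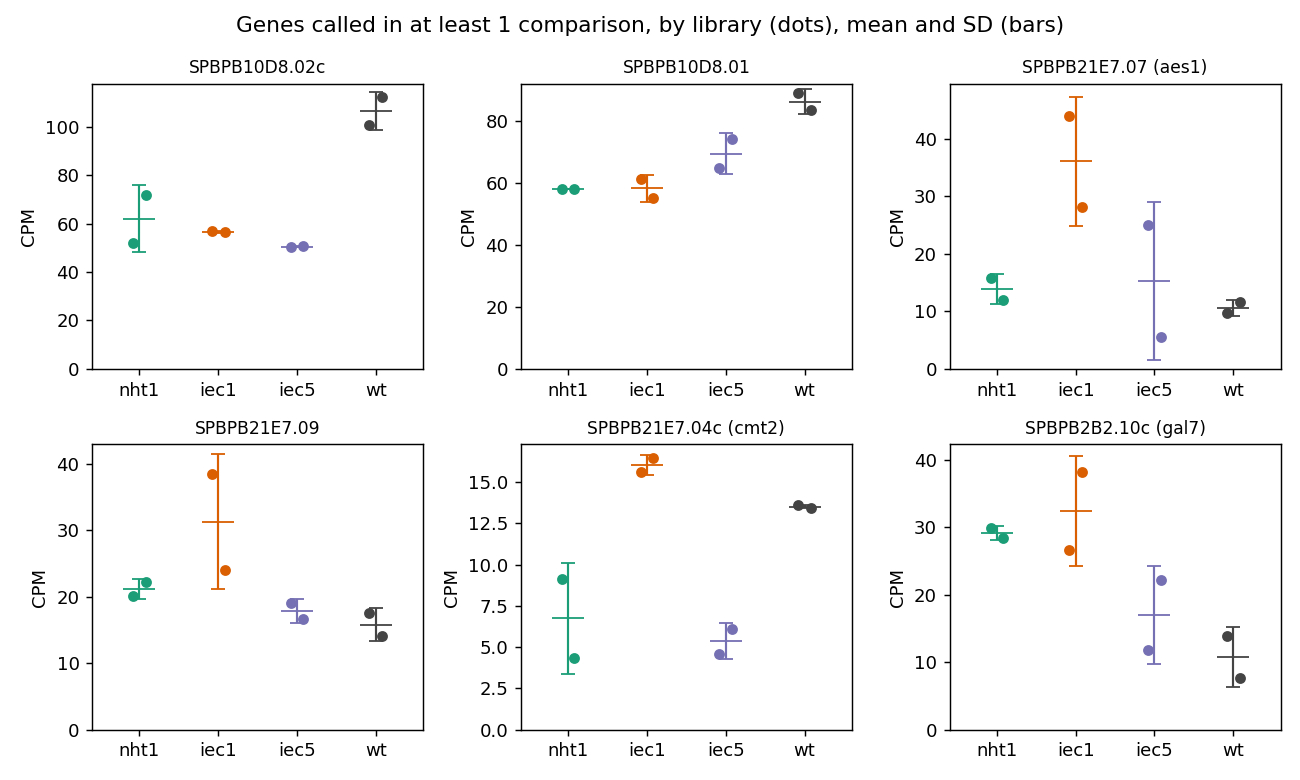
CPM in each library for the 6 genes of the chromosome II ends called in at least 1 comparison, 1 panel a gene with an axis from 0. Dots are the 2 libraries of each strain, with a horizontal mark at their mean and bars of 1 SD. SPBPB10D8.02c lies below both wt libraries in all 6 deletion libraries, gal7 lies above them in nht1 and iec1, and cmt2 is lower in iec5 than in iec1.

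Other right-end genes did not pass in any comparison with wild type. The pantoate pathway reductase gene pan5 averaged 157 ± 14.6 CPM in nht1, 189 ± 12.3 CPM in iec1, 157 ± 8.49 CPM in iec5 and 180 ± 33.6 CPM in wt libraries (SD, n = 2 each), with every deletion overlapping wt. The amino-acid permease gene nrg1 stood at 41.8 and 25.5 CPM in nht1, 39.4 and 25.3 CPM in iec1 and 36.6 and 24.8 CPM in iec5 libraries, against 27.2 and 19.6 CPM in wt libraries. Each deletion overlapped wt there (edgeR adjusted p 0.400 to 0.993). The proteasome regulator family gene fub2 was low, at 3.15 and 4.001 CPM in nht1 and 5.50 and 2.64 CPM in iec1 against 0.906 and 1.83 CPM in wt libraries, with log2 fold changes of 1.35 and 1.47 and SEs of 0.80. Its iec5 libraries overlapped wt. The phosphoprotein phosphatase gene SPBPB2B2.06c stood at 13.2 and 6.55 CPM in nht1 libraries, against 3.019 and 5.50 CPM in wt libraries, and did not pass (log2 fold change 1.22, SE 0.58, edgeR adjusted p = 0.296). In iec5 0 of the 13 tested right-end genes were called by edgeR (1 at an unadjusted p under 0.05, and 0 by DESeq2), where 0.408% of all genes were called by edgeR. The members' summed level was 1501 ± 324 CPM in nht1, 1258 ± 150 CPM in iec1, 1316 ± 173 CPM in iec5 and 1527 ± 421 CPM in wt libraries at the right end (SD, n = 2 each), of which pho84 made up 49.9% to 66.3%. At the left end the sum was 691 ± 49.4 CPM in nht1, 693 ± 8.87 CPM in iec1, 674 ± 12.5 CPM in iec5 and 792 ± 73.3 CPM in wt libraries (SD, n = 2 each), with every deletion library below both wt libraries. Not all genes shared this: of the 14 tested left-end genes, 6 had a log2 fold change above 0 in nht1, 6 in iec1 and 5 in iec5. SPBPB10D8.02c alone averaged 107 CPM in wt, against 62.1 in nht1, 56.6 in iec1 and 50.6 in iec5 libraries. SPBPB10D8.01 and SPBPB8B6.05c, described above, were also below wt.

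**Figure D4:**
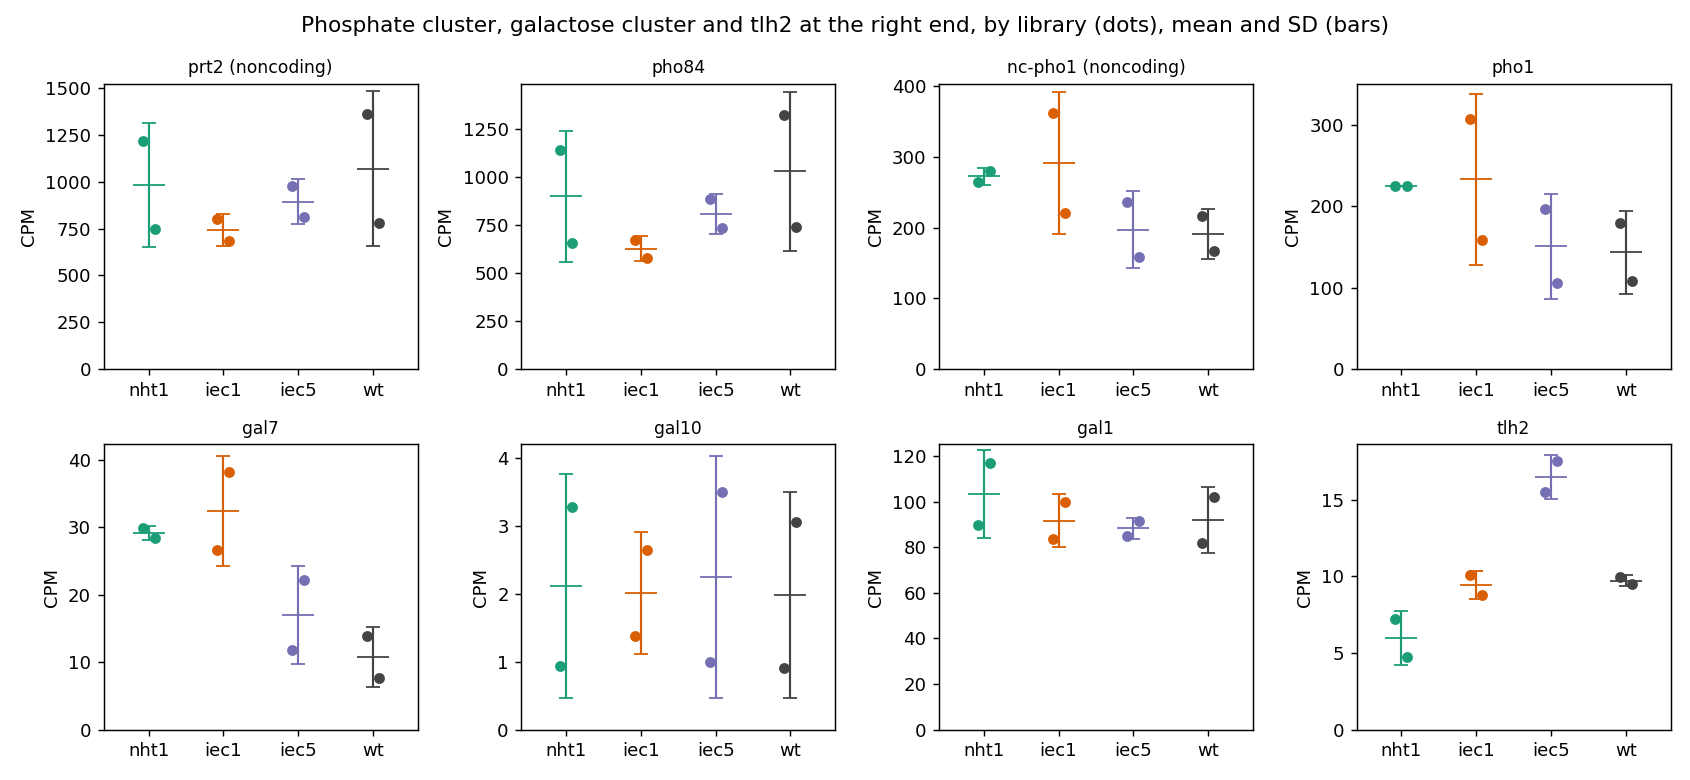
CPM in each library for the phosphate genes pho84 and pho1 with their noncoding RNAs prt2 and nc-pho1, the galactose genes gal7, gal10 and gal1, and tlh2, 1 panel a gene with an axis from 0. Dots are the 2 libraries of each strain, with a horizontal mark at their mean and bars of 1 SD. The 2 wt libraries of pho84 lie at 1323 and 738 CPM, gal7 is above wt in both nht1 and both iec1 libraries, and gal1 overlaps wt in every deletion.

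The deletions were also compared with each other. Libraries labelled iec1 exceeded iec5 for 1 of the 27 genes, cmt2, which encodes a catechol O-methyltransferase, where 4.71% of all genes were called (4.02% higher). It stood at 15.6 and 16.4 CPM in iec1 and 4.61 and 6.12 CPM in iec5 libraries, with 9.12 and 4.36 CPM in nht1 and 13.6 and 13.5 CPM in wt libraries. The iec1 libraries were above both iec5 libraries, and the log2 fold change of iec1 over iec5 was 1.57 (SE 0.39, edgeR adjusted p = 0.0285). That call was lost without any 1 of the iec1 or iec5 libraries (edgeR adjusted p 0.0697 to 0.175). Between iec1 and nht1, 0 of 27 genes were called by edgeR (5 at an unadjusted p under 0.05, and 0 by DESeq2), where 0.15% of all genes were called. Between iec5 and nht1, 0 of 27 were called by edgeR (2 at an unadjusted p under 0.05, and 0 by DESeq2), where 0.537% of all genes were called.

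The authors' table of noncoding features was read over the same windows. Of 19 features in the windows, 10 were tested. SPNCRNA.1307, annotated opposite SPBPB10D8.02c and inside it, was lower in nht1 (edgeR log2 fold change -0.75, adjusted p = 0.0116), iec1 (-0.84, adjusted p = 0.00239) and iec5 (-1.12, adjusted p = 0.000685). In nht1 it was the only 1 of the 10 called, where 6.57% of noncoding features were called (1.28% lower), and in iec5 the only 1 of the 10, where 1.46% were (0.456% lower). In iec1 3 were called, where 14.7% were (12.3% higher and 2.37% lower). They were SPNCRNA.1307, nam3 (log2 fold change 1.30, edgeR adjusted p = 0.0307) and nc-pho1 (0.60, edgeR adjusted p = 0.0358), the noncoding RNA that ends inside pho1. With DESeq2 neither nam3 (adjusted p = 0.106) nor nc-pho1 (adjusted p = 0.0796) passed. With library sizes and TMM factors from the noncoding counts, nc-pho1 did not pass either (edgeR adjusted p = 0.0783). The nam3 call was lost without iec1 replicate 2 (log2 fold change 0.39, edgeR adjusted p = 0.736), wt replicate 1 (0.104) or wt replicate 2 (0.0972), and the nc-pho1 call without iec1 replicate 1 (log2 fold change 0.20, edgeR adjusted p = 0.636) or wt replicate 2 (0.266). The nht1 call of SPNCRNA.1307 was lost without nht1 replicate 1 (edgeR adjusted p = 0.188) or wt replicate 2 (0.0706).

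These noncoding counts are not separate from the coding ones. Of 206 noncoding features that lie inside 1 coding gene on the other strand, the median ratio of count density to that of the coding gene was 1.14, and 81.1% lay between 0.5 and 2. The ratio was 1.14 for SPNCRNA.1307 and SPBPB10D8.02c, 1.17 for SPNCRNA.1302 and eno102, and 1.14 for SPNCRNA.1697 and gal1. Reads of a gene and of its antisense partner could therefore not be told apart in these tables, and the fall of SPNCRNA.1307 is not a second measurement of SPBPB10D8.02c. On the same strand, prt2 covers 89.0% of pho84 and nc-pho1 covers 91.3% of pho1.

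Genes for the machinery that acts at these ends were read in the same fit, in which 8.04% of all genes were higher in iec1 and 3.14% higher in nht1. Of 11 tested telomere proteins, 1 rose in iec1 (pot1, the single-strand telomere cap protein, edgeR log2 fold change 0.60, adjusted p = 0.0437) and 0 were called in nht1 or iec5. Of 18 tested heterochromatin factors, 1 rose in iec1 (tas3, of the RNA interference complex RITS, 0.70, edgeR adjusted p = 0.0245) and 0 were called in nht1 or iec5. Of 12 tested subtelomere chromatin and nuclear envelope factors, nur1, an inner nuclear membrane protein, rose in nht1 (1.87, edgeR adjusted p = 0.00242) and iec1 (2.54, edgeR adjusted p = 3.82e-05), and 0 were called in iec5. The lists had median log2 fold changes of -0.04 to 0.15, against 0.01 to 0.02 over all genes, and the iec1 counts are near the share over all genes.

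Beyond the 100 kb limits, 2 of the 4 nearest genes were called in at least 1 comparison with wt. Over all genes, 10.3% were called in iec1 and 4.13% in nht1. Just outside the limit on the left, the amino-acid permease gene SPBC359.01 fell in nht1 (edgeR log2 fold change -0.73, adjusted p = 0.0173) and in iec1 (-1.04, adjusted p = 0.000632), while its neighbour alr2, an alanine racemase gene, gave 0.18 and 0.05. Just outside it on the right, the agmatinase gene SPBC8E4.03 rose in iec1 (1.04, edgeR adjusted p = 0.000132) and its neighbour SPBC8E4.04, an aldo/keto reductase gene, gave 0.38. The genes just inside, SPBPB10D8.06c and SPBPB10D8.07c on the left and ecl3 and pho84 on the right, did not pass in any of the 3 comparisons.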

How the data were processed

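Both deposited tables of counts, 1 of coding and 1 of noncoding features, were used. Per the submitters' processing notes, the authors aligned reads with HISAT2 2.1.0 to ASM294v2, counted with featureCounts 1.6.1 and tested with DESeq2 1.28.0. The strand setting and the treatment of reads matching several places were not stated in them. In R 4.3.3, edgeR 4.0.16 tested the counts (glmQLFTest) with TMM factors, the default low-count filter and 1 fit of all 8 libraries, over 4652 coding genes and, separately, 1096 noncoding features with the coding table's library sizes. Calls have a Benjamini-Hochberg adjusted p under 0.05. Standard errors are approximate (the size of the log2 fold change divided by the root of its F statistic). CPM use TMM-scaled totals. The coefficient of variation between replicates was 11.9% (coding) and 13.1% (noncoding). Gene names and sequences came from RefSeq ASM294v3, which matched 5115 of 5137 coding features, and gene coordinates are the files' own. The test was checked on simulated data. Alternatives per coding gene were 13 fits: DESeq2 1.42.0, RLE, no filter, a replicate block, fits of 2 groups and leaving out each library. A fold minimum was applied to the counts of coding genes called and is not among the 13. For noncoding features RLE and fits of 2 groups were not run, and their own library sizes and TMM factors were. Named genes are those called, the 5 highest at each end, tlh2, gal1, gal7, gal10, and those at the limits; eno102, fex2, grt1, fah1, SPBPB8B6.02c, SPBC1348.12, fub2, SPBPB2B2.06c and tgd1 were chosen after their values were seen. Members and lists were chosen with earlier results of these data known. Python 3.11.15, pandas 2.3.3, numpy 2.4.6 and matplotlib 3.10.9 made tables and figures.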

Additional observations from a re-analysis of the deposited data

Results flagged for a closer look

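The cmt2 value in the libraries labelled iec1 against iec5 stood apart because the difference between these strains was itself tested and passed, with a log2 fold change of 1.57 (SE 0.39, edgeR adjusted p = 0.0285). Against wt libraries the same gene gave 0.25 in iec1 and -1.32 in iec5, and neither passed.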

How the results depend on the processing

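Counts of genes called moved as follows. Left end, nht1 (1 call): 2 with RLE, the replicate block or 2 groups, 0 with a minimum log2 fold change of 1 either way, and 0 to 2 leaving out 1 library. Left end, iec1 (4): 2 with DESeq2 or 2 groups, 1 with the fold minimum, and 1 to 4 leaving out 1 library. Left end, iec5 (1): 0 to 1. Right end, nht1 (1): 2 with the replicate block, 0 to 1 leaving out 1 library. Right end, iec1 (1): 2 with RLE or 2 groups, 3 with the replicate block, 1 to 2 leaving out 1 library. Between iec1 and nht1 (0): 1 with 2 groups. Between iec1 and iec5 (1): 3 with the replicate block, 0 to 1 leaving out 1 library. Noncoding, nht1 (1): 4 with the replicate block, 0 to 2 leaving out 1 library. Noncoding, iec1 (3): 1 with DESeq2, 5 with no filter or the replicate block, 2 to 4 leaving out 1 library. The cause of these moves was not tested. No called gene changed direction. The replicate numbers were not taken as pairs: correlations of same-numbered deviations ran from -0.0694 to 0.274, not all above 0.1. With the replicate block pho1 passed in nht1 (edgeR adjusted p = 0.00977) and iec1 (0.00790). Without its highest gene, SPBPB10D8.06c, the left-end sum was 512 CPM in nht1, 519 in iec1, 494 in iec5 and 616 in wt. That gene had log2 fold changes of -0.02 to 0.03 against wt, so this sum does not show which genes made the gap to wt. The right-end sum without pho84 was 600.2 CPM in nht1, 631 in iec1, 506 in iec5 and 496 in wt. The order of the strains in these right-end sums is not read as a difference. With pho84, wt (1527 ± 421 CPM) and nht1 (1501 ± 324 CPM; SD, n = 2 each) lay within their spread. No SD was taken without pho84. Of the 58 genes 31 had too few counts for the filter, and small changes in them were not detectable at this depth.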

Other observations

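The coding table holds 5 features on a separate sequence named for the telomeric gap of chromosome II, which were not placed at either end here. Among them SPBC460.05 stood at 38.4 and 40.0 CPM in nht1, 28.4 and 43.2 CPM in iec1 and 29.3 and 35.0 CPM in iec5 libraries, against 57.7 and 76.1 CPM in wt libraries. All 6 deletion libraries were below both wt libraries. Its edgeR log2 fold change was -0.77 in nht1 (adjusted p = 0.0642), -0.88 in iec1 (adjusted p = 0.0191) and -1.05 in iec5 (adjusted p = 0.0557). Over all genes 10.3% were called in iec1. SPBC460.05 was chosen after its values were seen, and its call under the alternatives is not given here. The other features of that sequence did not pass against wt (edgeR adjusted p 0.514 to 0.996).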
